A study of Mus musculus with 10 samples.

Results

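The imprinted genes described here are Mest and a set of 9 other genes: Peg3, Cdkn1c, Grb10, Snrpn, Ndn, Sgce, Dlk1, H19 and Gnas. Each makes at least 1 transcript that is expressed mainly from 1 parental allele. They were measured in mouse visual cortex on 10 one-colour Affymetrix arrays. Probe sets were taken where the platform annotation gives a single gene symbol and that symbol is one of the 10. This found 15 of 12422 probe sets that are not controls, for 8 of 10 genes and out of 8251 genes with such a probe set. Mest, Cdkn1c, Sgce and Dlk1 had 1 probe set each, Ndn had 2, and Peg3, Grb10 and Gnas had 3 each. The probe set for H19 is annotated to both H19 and Mir675, and no probe set is annotated to Snrpn, so neither gene was analysed here. The set was picked partly for the lower Mest signal in deprived cortex, that is, the set was in part chosen by the difference between deprived and non-deprived cortex. This comparison is therefore given for these genes as a description with its error, and no p of theirs is reported.

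The 5 deprived samples are visual cortex contralateral to a removed eye, and the 5 non-deprived samples are visual cortex on the ipsilateral side. All 10 come from wild-type C57Bl6 mice that lost 1 eye at postnatal day 14 and were killed at postnatal day 18, so no sample comes from an intact animal. The labels name 4 mice and pooled samples and do not say how animals were divided over arrays, so the errors describe how far these 10 arrays scatter, whether from animals or from handling. Neuronal markers were bright: the summed signal of 9 of the 10 listed neuronal markers lay between 47040 and 51957 in deprived and between 49348 and 52166 in non-deprived samples, and Tbr1, a transcription factor of deep-layer cortical neurons, 5162 to 7633 in deprived samples and 5400 to 7576 in non-deprived samples. Markers of choroid plexus (4 of 6 on the array, 0 of them bright enough to be tested) summed to at most 317 in deprived and 297 in non-deprived samples. Those of thalamus, striatum or hippocampus (5 of 8 on the array, 4 tested) summed to 2005.1 to 2891.5 in deprived and 2053.5 to 2252.7 in non-deprived samples. The median signal of the arrays was 193 to 209 arbitrary units in deprived and 191 to 200 in non-deprived samples.

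In genomic imprinting, DNA methylation laid down in the egg or the sperm silences 1 parental copy of a gene, and a single control region can govern a cluster of neighbouring genes. Many imprinted genes act on growth before birth, and several stay active in the brain. Mest, Peg3, Ndn, Sgce, Dlk1 and Snrpn are expressed from the paternal copy, and Cdkn1c and H19 from the maternal copy. In mice Grb10 is maternal in most tissues and paternal in neurons, and the Gnas locus makes overlapping transcripts of maternal, paternal and biallelic origin. The arrays read total RNA and do not tell the parental copies apart.

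The 10 genes lie on 5 chromosomes in the RefSeq annotation of GRCm38.p6. Mest (chr6:30733506-30748466) shares chromosome 6 with Sgce (chr6:4674350-4747204). Peg3 (chr7:6703892-6730462), Snrpn, Ndn (chr7:62348277-62349928), H19 and Cdkn1c (chr7:143458339-143461059) lie on chromosome 7. Grb10 (chr11:11930499-12037428), Dlk1 (chr12:109452485-109463336) and Gnas (chr2:174284320-174346744) are each alone on their chromosome.

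The methylation that sets imprinting sits on CpG dinucleotides, so promoter windows are shown with their CpGs in capitals. RefSeq gave 16 windows of 300 bases (250 before and 50 after an annotated start) for 7 of the 10 genes. The windows printed are those of Mest, the gene with the largest difference of the set, and of Peg3 and Ndn, which share its paternal expression and whose own signals are given further on. Mest has an upstream start (chr6:30733256-30733555, plus strand) and a start 4544 bases downstream (chr6:30737800-30738099, plus strand); another annotated start lies 3 bases past that. Peg3 is read on the minus strand (chr7:6730370-6730669) and Ndn on the plus strand (chr7:62348027-62348326).
Mest, upstream start: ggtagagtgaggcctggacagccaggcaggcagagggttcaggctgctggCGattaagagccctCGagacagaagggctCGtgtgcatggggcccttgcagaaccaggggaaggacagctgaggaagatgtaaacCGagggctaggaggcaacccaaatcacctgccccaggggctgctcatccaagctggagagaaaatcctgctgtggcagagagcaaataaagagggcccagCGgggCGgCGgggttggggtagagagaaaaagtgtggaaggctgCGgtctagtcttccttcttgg
Mest, downstream start: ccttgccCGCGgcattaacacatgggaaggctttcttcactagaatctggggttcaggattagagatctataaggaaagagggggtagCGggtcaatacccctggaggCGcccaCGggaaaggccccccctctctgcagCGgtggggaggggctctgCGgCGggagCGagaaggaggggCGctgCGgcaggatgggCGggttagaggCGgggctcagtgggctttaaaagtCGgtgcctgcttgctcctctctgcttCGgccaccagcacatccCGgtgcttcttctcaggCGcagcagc
Peg3: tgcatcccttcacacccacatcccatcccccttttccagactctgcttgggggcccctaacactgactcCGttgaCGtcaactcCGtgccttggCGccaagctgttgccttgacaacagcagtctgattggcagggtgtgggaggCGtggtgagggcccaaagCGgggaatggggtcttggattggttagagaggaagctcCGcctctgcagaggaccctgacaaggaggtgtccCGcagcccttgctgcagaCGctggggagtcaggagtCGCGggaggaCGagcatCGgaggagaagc
Ndn: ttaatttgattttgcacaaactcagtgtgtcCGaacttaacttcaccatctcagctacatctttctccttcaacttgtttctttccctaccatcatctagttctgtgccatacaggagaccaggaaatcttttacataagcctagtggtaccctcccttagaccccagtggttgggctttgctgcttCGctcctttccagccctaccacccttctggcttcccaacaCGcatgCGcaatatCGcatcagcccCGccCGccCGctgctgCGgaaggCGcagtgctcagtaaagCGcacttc

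The downstream Mest window held 17 CpGs and the upstream window 8. Of all 32851 promoter windows, 31.4% held at least 17 and 48.7% at least 8. Peg3 had 13 CpGs and Ndn 11, counts reached by 37.9% and 41.4% of all windows. The windows richest in CpG were those of Grb10 (45, a count reached by 1.93% of windows) and Gnas (40, reached by 3.91%). Their other windows held 9 CpGs in Grb10 and 16, 27 and 28 in Gnas, and the Dlk1 window held 9. The 4 Snrpn windows held 2 to 7. Across the 16 windows the median was 12 CpGs, against 7 over all windows, and some windows of Mest and of Gnas overlap each other. The half-site TGACG of the cAMP response element, searched on both strands and holding a CpG itself, was found in 6 of 16 windows against 20.8% of all windows. Among the 6 are overlapping Gnas windows (chr2:174327499-174327798 and chr2:174327518-174327817), so this count is not of separate stretches. Peg3 had the half-site on both strands at 1 place. The matches overlapped at bases 73 to 80 of the printed window and together spell TGACGTCA. None of the Mest windows had the half-site. The AP-1 motif TGANTCA, which reads the same on both strands, was in 0 of 16 windows and in 7.81% of all.

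**Figure D1:**
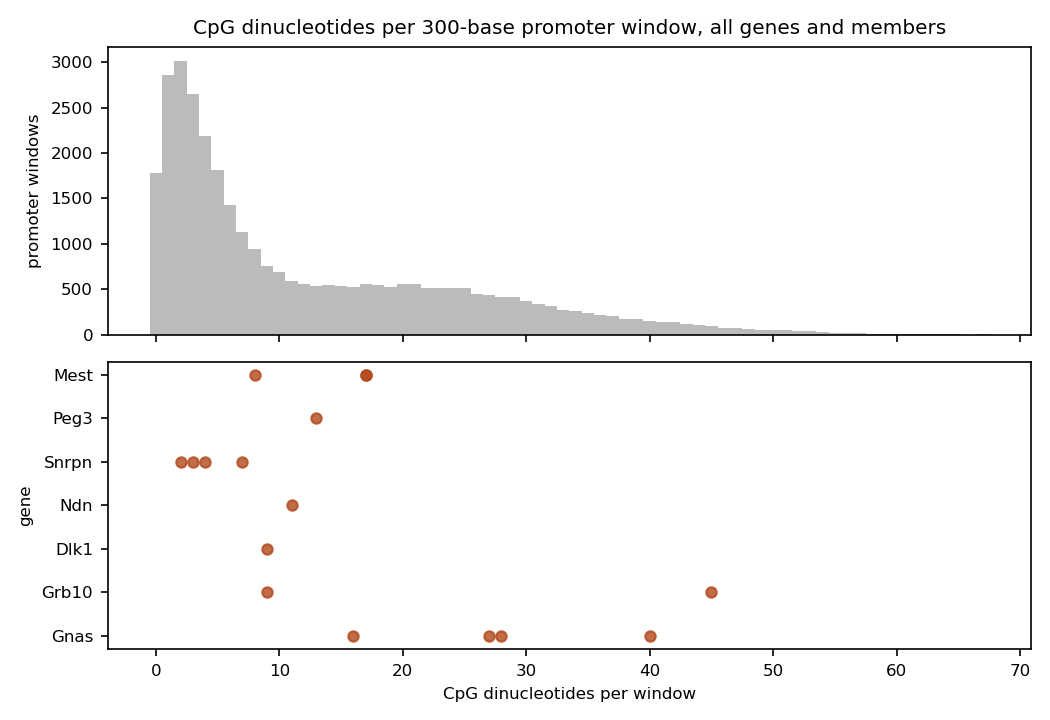
Number of CpG dinucleotides in 300-base promoter windows from RefSeq. The upper panel counts all 32851 windows (y axis: windows), and each point below is 1 annotated start of the gene named on the left. Grb10 and Gnas reach 45 and 40 CpGs, Mest has windows with 8 and 17, and the Snrpn windows lie at 7 or fewer.

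A microRNA gene, Mir335, lies inside Mest on the same strand (hairpin at chr6:30741299-30741396), and its mature forms are shown because the host transcript is the one with the largest difference. The arrays did not measure them. The seed, bases 2 to 8, is in capitals, and the seeds of both arms differ.
mmu-miR-335-5p: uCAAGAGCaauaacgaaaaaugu
mmu-miR-335-3p: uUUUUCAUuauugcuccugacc

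Mest encodes a membrane protein of the alpha/beta hydrolase fold family. Its signal in the deprived samples 1 to 5 was 156.5, 190.1, 200.6, 214.3 and 280.3 arbitrary units, against 286.3, 315.0, 248.1, 352.5 and 352.3 in the non-deprived samples 1 to 5. Of the deprived samples, 4 lay below every non-deprived sample; deprived replicate 5 lay above non-deprived replicate 3, so the groups overlap. The means were 208 ± 45.5 in deprived and 311 ± 44.8 in non-deprived cortex (SD, n = 5 each), a ratio of 0.670. On the scale of log2(signal + 16) the difference, deprived minus non-deprived, was -0.55 ± 0.15 (limma SE; 95% interval -0.88 to -0.23). The added 16 makes such differences smaller for dim probe sets. Because this difference chose the gene, nothing is read from its interval.

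Over all 7453 tested probe sets, 42 (Mest included) had a difference at or below that of Mest, and 0.859% had one at least as large in either direction. Leaving out any single array gave Mest differences between -0.66 and -0.47. Because the Mest difference helped to choose the set, nothing is read from its rank or from this range. In bulk tissue, fewer cells of a type and less RNA per cell cannot be told apart. The 5 markers of proliferating cells on the array summed to 1146 to 1611 in deprived and 1233 to 1572 in non-deprived samples. The 6 markers of immature neurons summed to 5630 to 7857 in deprived and 5397 to 7355 in non-deprived samples. The neuronal sum, given above, was 0.963 times as large in deprived cortex on average. The 9 neuronal markers had a median log2 difference of -0.04, with 2 above and 7 below 0. Tubb3, a neuronal tubulin among them that was named after its value was seen, had -0.25 ± 0.09 (limma SE). The suffix of its probe set marks a family of similar sequences, so its value is not read as one for neurons as a whole. The part of these markers in the Mest difference was not tested.

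**Figure D2:**
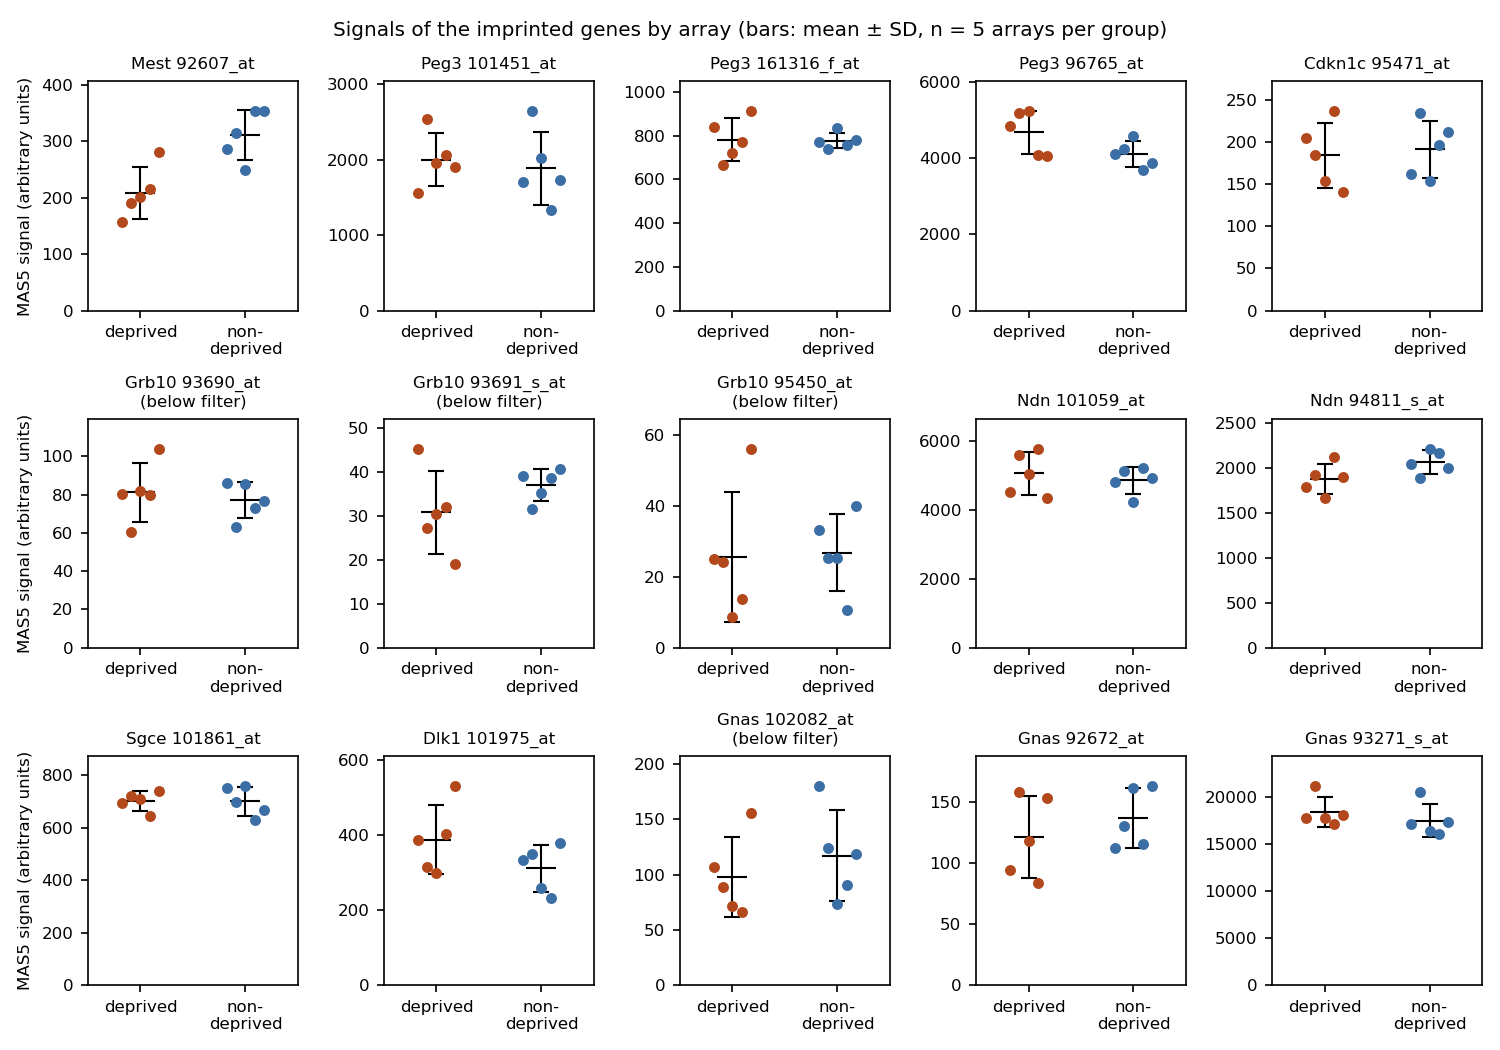
MAS5 signal (arbitrary units, linear axis from 0) of each of the 15 probe sets; every point is 1 array, ordered from left to right by replicate number within the group, and bars are mean ± SD of 5 arrays. Mest is the panel where 4 deprived arrays lie below all non-deprived arrays; the groups overlap in all 15 panels.

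In the limma fit across all probe sets, 0 of the 11 probe sets that passed the signal filter, from 7 of the genes, were called at an adjusted p of 0.05, beside 0% of all 7453 entered. At an unadjusted p of 0.05 limma called 357 of all probe sets (4.79%). None of the 11 tested probe sets had groups that did not overlap, against 0.953% of all 7453 tested. The groups also overlapped in the 4 probe sets below the filter. Since the comparison was used to pick the set, nothing is read from these counts. The median difference of the 15 probe sets was 0.0035 on the log2 scale, with 8 above and 7 below 0. Over all 12422 probe sets it was 0.02. Without Mest, the 10 tested probe sets had differences between -0.17 and 0.29, and the 95% intervals of all 10 included 0 in this fit, which has no term for the replicate number.

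**Figure D3:**
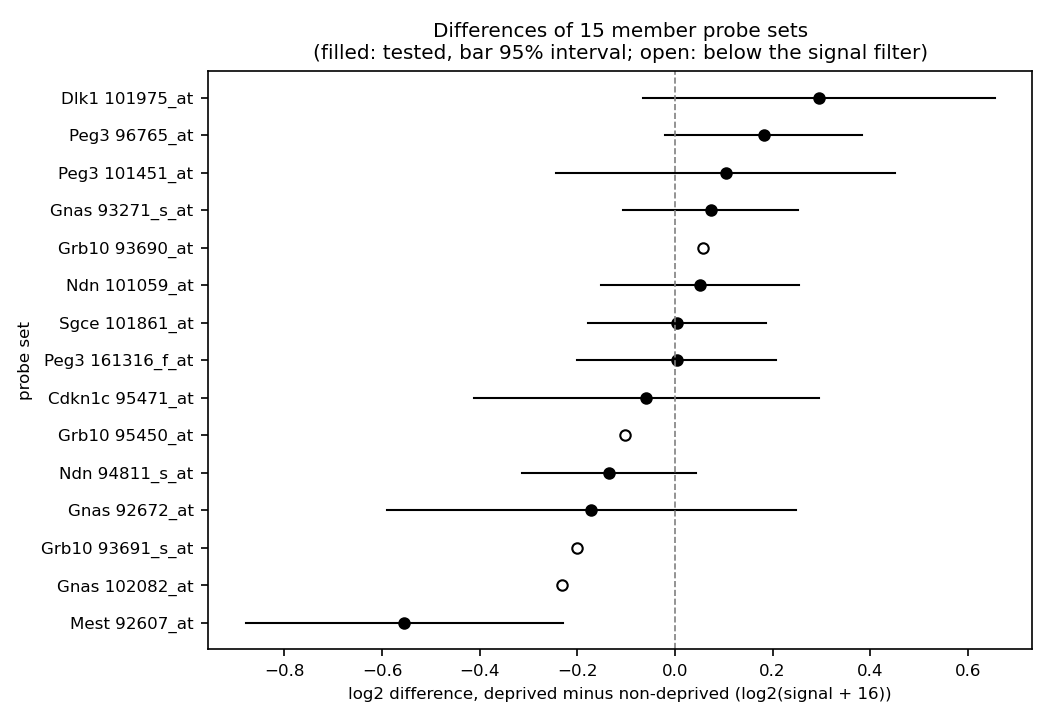
Log2 difference, deprived minus non-deprived, of 15 probe sets of imprinted genes, sorted by value. Filled points are tested probe sets with their 95% limma interval, and open points are probe sets below the signal filter. Mest stands lowest at -0.55, Dlk1 highest at 0.29, and the Mest difference is the one that helped to choose the set.

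Dlk1, a transmembrane protein with EGF-like repeats related to Notch ligands, had the highest difference of the set. Its signals were 387.4, 314.9, 299.1, 402.0 and 530.9 in the deprived samples 1 to 5, against 333.5, 350.0, 259.9, 232.2 and 378.9 in the non-deprived samples. Of the deprived samples, 3 lay above every non-deprived sample, and the other two lay within their range. The means were 387 ± 92.0 in deprived and 311 ± 62.2 in non-deprived cortex (SD, n = 5 each), with a log2 difference of 0.29 ± 0.17 (SE; 95% interval -0.06 to 0.65). Without deprived replicate 5 the difference was 0.18. Summed meningeal markers (8 of 8 on the array) were 7451 to 13715 in deprived and 7024 to 10418 in non-deprived samples, and summed vascular markers (9 of 9) 2475 to 2792 in deprived and 2483 to 2842 in non-deprived samples. On average the meningeal sum was 1.23 times as large in deprived samples, with 4 of its 8 markers higher and 4 lower in mean log2 signal. The largest part of the sum was 1 gene, Ptgds, at 4123 to 10524 in deprived and 3461 to 7347 in non-deprived samples. The suffix of the Ptgds probe set marks a family of similar sequences, so the sum is not read as an amount of meninges. The part of the meningeal and vascular markers in the Dlk1 values was not tested.

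Cdkn1c, an inhibitor of cyclin-dependent kinases known as p57Kip2, had signals that covered nearly the same range in both groups. They ran from 140.2 to 236.4 with a median of 184.8 in deprived cortex, and from 153.7 to 233.9 with a median of 196.3 in non-deprived cortex. The difference was -0.06 ± 0.16 (SE, 95% interval -0.41 to 0.30). Changes within that interval are not excluded by these arrays. Grb10, an adaptor that binds insulin and IGF receptors and dampens their signal, was dim: all 3 of its probe sets were under the signal filter (the 40th percentile of mean log2 signal) and have no test. The brightest, 93690_at, read 60.4 to 104.0 in deprived and 63.3 to 85.8 in non-deprived cortex. On 93691_s_at the signals were 19.1 to 45.3 in deprived and 31.6 to 40.6 in non-deprived cortex, and on 95450_at 8.7 to 56.2 in deprived and 10.6 to 39.9 in non-deprived cortex. The differences on the log2 scale were 0.06, -0.20 and -0.10 in that order, and the spread within groups (SD) was 0.19, 0.22 and 0.51.

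Gnas encodes the stimulatory G protein alpha subunit and, from other starts, further proteins. The annotation does not say which of its transcripts each probe set reads, and the probe sets behaved differently. On 93271_s_at the signal was 17743.7, 21149.9, 17735.9, 17068.9 and 18106.6 in the deprived samples, against 17122.4, 20523.6, 16342.0, 16032.6 and 17319.0 in the non-deprived samples. The arrays numbered 2 were the highest of both groups. The difference was 0.07 ± 0.08 (SE; 95% interval -0.11 to 0.25). The second probe set, 92672_at, read 83.8 to 157.6 in deprived and 111.9 to 163.0 in non-deprived cortex, with a difference of -0.17 ± 0.19 (SE; 95% interval -0.59 to 0.25). The last, 102082_at, lay under the filter, with means of 97.7 ± 36.1 in deprived and 117 ± 40.7 in non-deprived cortex (SD, n = 5 each).

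Peg3 encodes a large Krüppel-type zinc-finger protein of the nucleus. On 96765_at its signals were 4832.5, 5176.8, 5226.6, 4080.2 and 4051.3 in the deprived samples and 4119.2, 4241.2, 4571.7, 3698.3 and 3882.8 in the non-deprived samples. Deprived samples 1 to 3 lay above every non-deprived sample, while samples 4 and 5 lay within their range. The means were 4673 ± 575 in deprived and 4103 ± 336 in non-deprived cortex (SD, n = 5 each), with a difference of 0.18 ± 0.09 (SE; 95% interval -0.02 to 0.38). The other Peg3 probe sets had smaller differences. On 101451_at the means were 2001 ± 354 in deprived and 1886 ± 488 in non-deprived cortex (difference 0.10 ± 0.16 SE), and without non-deprived replicate 4 the difference turned to -0.01. The probe set 161316_f_at, whose suffix marks a family of similar sequences, had means of 782 ± 96.6 in deprived and 776 ± 34.7 in non-deprived cortex (difference 0.0035 ± 0.09 SE), and the sign changed with 5 of 18 alternative settings. Its deprived samples were more scattered: 2 lay below and 2 above the whole non-deprived range.

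Ndn, necdin, is a MAGE family protein of postmitotic neurons whose human counterpart lies in the Prader-Willi region. Both probe sets were bright and pointed in opposite directions within their error. On 101059_at the signal was 4347 to 5778 with a median of 5040 in deprived cortex and 4219 to 5225 with a median of 4929 in non-deprived cortex (difference 0.05 ± 0.09 SE; 95% interval -0.15 to 0.25). On 94811_s_at it was 1670 to 2119 with a median of 1899 in deprived and 1883 to 2214 with a median of 2038 in non-deprived cortex (difference -0.13 ± 0.08 SE; 95% interval -0.31 to 0.04). Sgce, epsilon-sarcoglycan, is a membrane glycoprotein whose human gene is mutated in myoclonus-dystonia. It had the smallest spread of the set, with a within-group SD of 0.09 on the log2 scale against a median of 0.20 over all tested probe sets. Its signals were 695.7, 721.4, 710.2, 643.9 and 740.2 in deprived samples and 750.1, 697.6, 759.8, 629.7 and 667.8 in non-deprived samples. The groups covered the same range, and the difference was 0.0045 ± 0.08 (SE; 95% interval -0.18 to 0.19).

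From array to array, correlations among the genes took both signs. After the mean of each group was subtracted, the 55 pairs among the 11 tested probe sets had Pearson correlations from -0.80 to 0.78 over 10 arrays, with a median of 0.09. The highest was between Peg3 101451_at and Gnas 93271_s_at, which were both high on the arrays numbered 2. Pairs of probe sets of 1 gene had correlations from -0.44 to 0.41, so that probe sets of the same gene did not follow each other closely. Mest correlated with the 10 others at -0.74 (Peg3 96765_at) to 0.46 (Dlk1). With so few arrays, and with array effects shared by all probe sets, these are descriptions only.

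Among 6741 tested probe sets of other genes, the one most like Mest within the groups was Fzd9, a Frizzled receptor for Wnt proteins, with a Pearson r of 0.95 and a Spearman rho of 0.95 over the 10 arrays. It was followed by St3gal6, a sialyltransferase (r of 0.91), Bcat2, the mitochondrial branched-chain aminotransferase (0.90), Fam83f (0.90), Dad1, a subunit of the oligosaccharyltransferase (0.89), and Smpd2, a neutral sphingomyelinase (0.88). These are the 6 highest of many values and were measured on arrays that share their scaling. Their own differences between the groups lay between -0.21 (Dad1) and 0.30 (Smpd2). Fzd9 had mean signals of 150 in deprived and 126 in non-deprived cortex (log2 difference 0.19 ± 0.28 SE), and Smpd2 382 in deprived and 305 in non-deprived cortex (0.30 ± 0.14).

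Other genes reported as imprinted in mice, some in a few tissues or in placenta alone, were set beside the 10. Of 63 listed genes, 38 had a probe set with 1 symbol (46 probe sets), and 24 probe sets of 23 genes were tested. None passed a limma adjusted p of 0.05; 3 had an unadjusted p under 0.05 (2 higher and 1 lower), or 3 of 24 against 4.79% of all tested. The median difference over the 24 was 0.0046, against 0.0066 over all tested probe sets. Of the 24, 2 had groups that do not overlap (Pon2 and Nap1l4), against 0.953% of all tested. The list was written with earlier results of these data known, so nothing is read from these counts.

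**Figure D4:**
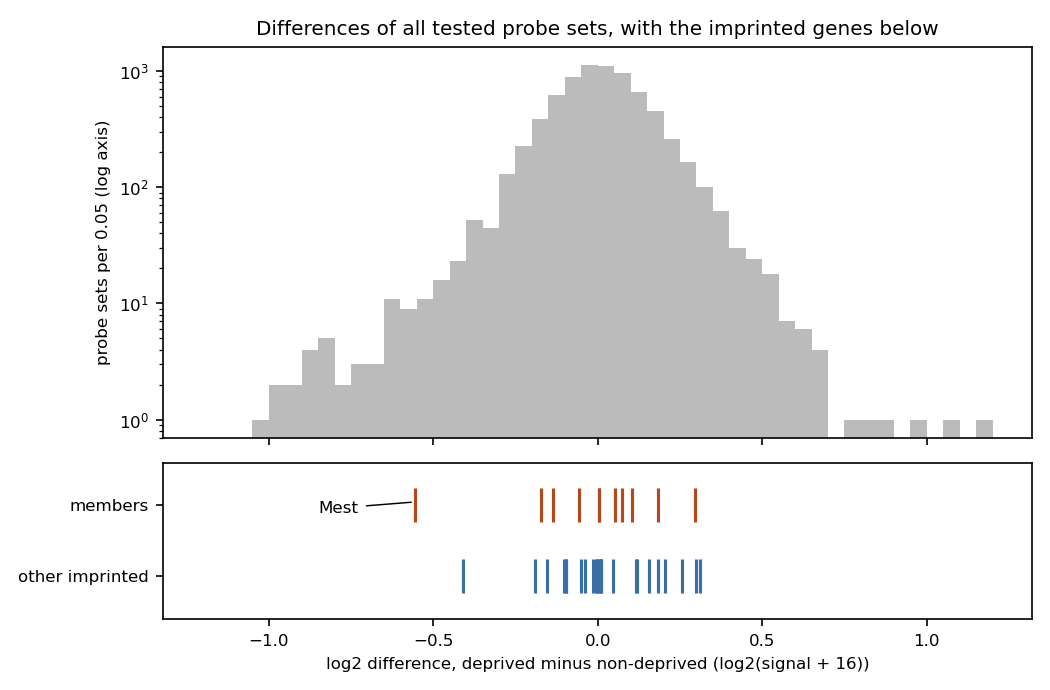
Distribution of log2 differences, deprived minus non-deprived, over 7453 tested probe sets (upper panel, number per bin of 0.05 on a log axis), with 1 tick below for each of the 11 tested probe sets of the 10 genes (members) and each of the 24 of other imprinted genes. Apart from Mest at -0.55 and Pon2 at -0.41, the ticks lie between -0.19 and 0.31.

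Pon2, a paraoxonase family enzyme, lies 0.517 megabases from Sgce on chromosome 6. Its signals were 662.6, 699.4, 724.7, 591.8 and 597.6 in the deprived samples and 958.4, 962.6, 867.9, 804.5 and 782.8 in the non-deprived samples. All 5 deprived samples lay below all 5 non-deprived samples, with a difference of -0.41 ± 0.10 (SE) and a limma adjusted p of 0.447. Nap1l4, a nucleosome assembly protein, lies 0.0525 megabases from Cdkn1c on chromosome 7. It had 566.9, 594.0, 630.2, 689.3 and 712.6 in the deprived samples and 480.5, 555.8, 540.9, 498.2 and 476.8 in the non-deprived samples, so that every deprived sample was higher (difference 0.31 ± 0.09 SE, limma adjusted p of 0.992). A second, dim probe set of Nap1l4, not tested, had means of 45.2 in deprived and 64.04 in non-deprived samples, the other way round.

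Igf2, the growth factor next to H19 on chromosome 7, had 2042.0, 2033.2, 3337.3, 2974.9 and 2553.8 in the deprived samples and 2066.6, 1988.4, 1926.0, 2093.1 and 2241.3 in the non-deprived samples. Of the deprived samples, 3 lay above all non-deprived samples, and the difference was 0.30 ± 0.13 (SE, limma adjusted p of 0.992). Dcn, the matrix proteoglycan decorin, had a difference of 0.25 ± 0.14 (SE), Slc38a4, an amino acid transporter, 0.21 ± 0.16, and Impact, a regulator of translation under amino acid starvation, -0.19 ± 0.15. Igf2 and Dcn are also expressed in meninges. The meningeal sum, given above and made up largely of Ptgds with its family-suffix probe set, was 1.23 times as large in deprived samples. Of its 8 markers, 4 were higher and 4 lower. The part of meninges in the Igf2 and Dcn values was not tested. Meg3, the noncoding RNA of the Dlk1 domain, had means of 6445 ± 468 in deprived and 6421 ± 637 in non-deprived cortex (brighter probe set; SD, n = 5 each). Nnat, neuronatin, had 728 ± 249 in deprived and 641 ± 169 in non-deprived cortex, and Ube3a, a ubiquitin ligase expressed from the maternal copy in neurons, 208 ± 67.7 in deprived and 201 ± 19.7 in non-deprived cortex. Peg10, which starts 102 bases from Sgce, and the zinc-finger gene Plagl1 lay below the filter. Peg10 had means of 53.6 in deprived and 49.1 in non-deprived cortex. Plagl1 had 34.04 in deprived and 66.7 in non-deprived cortex on one probe set, and 80.2 in deprived and 63.1 in non-deprived cortex on the other. Copg2, the neighbour of Mest, was not analysed here.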

How the data were processed

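Total RNA of 10 visual cortex samples was hybridised to 1 array each. The authors deposited MAS5 signal intensities on a linear scale, per the submitters' processing notes; its version is not given in the sources used here, nor is the scaling target. The trimmed mean of every array (2% left out at each end) was 499.9, so arrays had been scaled before deposit and values are relative to the array. Control probe sets (66) were left out. Symbols came from the platform annotation, updated through Entrez IDs (10833 probe sets with 1 symbol, 396 with several, 1193 with none).

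Intensities were converted to log2(value + 16). Probe sets at or above the 40th percentile of the mean (7453) entered limma 3.58.1 (R 4.3.3, lmFit and eBayes with an intensity trend; deprived minus non-deprived, no covariate) with Benjamini-Hochberg adjustment. For probe sets below the filter, differences of group means are given. No detection calls were used. The words bright and dim give a rough level only, and no test compared signals between genes. Where a gene has several probe sets, the brightest is the one with the highest mean signal. Precision is limited by how many arrays there are. The fit was tested on simulated data.

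Same-numbered arrays of both groups correlated at 0.14, 0.18, 0.22, 0.23 and 0.02 (numbers 1 to 5) in their deviations from the group means. Arrays of unlike numbers correlated at 0.09 at most. Number 5 was not above 0.1, and the labels do not say how animals were divided. The numbers were therefore not taken as pairs in the main fit, and the errors above are unpaired. A fit with the replicate number as a block is given at the end.

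The genes, lists and tests were chosen with earlier results of these data known. Named are all probe sets of the 10 genes; of the other imprinted genes the 6 with the largest absolute difference (brightest tested probe set per gene) and Igf2, Nnat, Meg3, Peg10, Copg2, Ube3a and Plagl1; the 6 probe sets most correlated with Mest; and markers from fixed lists, of which the marker genes Tbr1 and Tubb3 were named after their values were seen.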

Additional observations from a re-analysis of the deposited data

Results flagged for a closer look

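In 6 of 50 groups of 5 arrays examined (12%), the highest or lowest array stood apart from the other 4 by more than Dixon's 95% limit for the gap as a share of the range; chance gives about 1 in 20. Gnas 93271_s_at was high on deprived replicate 2, at 21150 against 17069 to 18107 on the others. It was also high on non-deprived replicate 2, at 20524 against 16033 to 17319. Meg3 160173_at was high on deprived replicate 2, at 6624 against 4635 to 5153. Ube3a 101581_at read 325.8 on deprived replicate 5, against 161.7 to 199.8. Slc38a4 104286_at read 106.0 on non-deprived replicate 3, against 130.6 to 136.5, and Dcn 93534_at read 438.8 on non-deprived replicate 4, against 304.8 to 335.3.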

How the results depend on the processing

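No probe set of the 10 genes and none of the other imprinted genes passed a limma adjusted p of 0.05 under any of 18 alternatives (pseudocounts of 4 and 64, no filter, a filter at the 60th percentile, quantile normalization, median scaling, a replicate block, no intensity trend, and the omission of each array). With the filter at the 60th percentile Mest was not among the probe sets tested. The Mest difference stayed below 0 in all 18, between -0.66 (without deprived replicate 5) and -0.47 (without deprived replicate 1, and with a pseudocount of 64). That difference helped to choose the set, so its range is a description only. Of 270 recomputed differences of the 15 probe sets, all 270 moved by less than the within-group SD. This was largely fixed in advance. The filter, block and trend settings leave a difference as it is, and omitting 1 of 5 arrays cannot move it that far. Nothing is read from this count. The median of the 15 differences ranged from -0.03 to 0.03 over single-array omissions. It was 0.05 with 1 probe set per gene, an alternative chosen after seeing the data. Over all tested probe sets, limma called 2 with a pseudocount of 64 and 2 with a filter at the 60th percentile, against 0. With the replicate block it called 6, none of them imprinted genes of either list. Under the block, the 95% interval of Peg3 96765_at did not include 0 (0.18, 0.05 to 0.32), while those of the 9 other tested probe sets without Mest did. The share of all probe sets with such an interval is not given here, so nothing is read from this. Mest was lower, and Peg3 96765_at and Gnas 93271_s_at were higher, in the deprived array of all 5 numbers. How many of all probe sets do the same is not given here, and the lower Mest signal helped to choose the set. Nothing is read from these signs. Over single-array omissions the number of all probe sets that limma called ran from 0 to 5: 1 without deprived replicate 4 and 5 without non-deprived replicate 1. Of 10 arrays, 9 correlated best with the array of their own number, a hint from the data and not from the labels. Dim probe sets (3 of Grb10 and 1 of Gnas) were not set against background.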
